A study of Homo sapiens with 2 samples.

Results

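The genes examined were 52 named genes of autophagy, of its control by mTOR and of the lysosome, out of 20037 protein-coding genes placed on chromosomes. PHF8 occupancy at these genes was read from chromatin immunoprecipitation followed by sequencing (ChIP-seq) in RKO cells, a human line established from a colon carcinoma. The cells carried either an empty vector or a construct that overexpresses APOC2, the gene of an apolipoprotein, and chromatin of both was precipitated with the same PHF8 antibody. There was 1 library and 1 peak table per condition, so there was no replicate error to hold a difference against and no p-value was computed. The level of APOC2 or PHF8 in the cells was not measured here. A gene was called occupied when the midpoint of a peak lay within 1 kb of its annotated start or end (RefSeq, GRCh38.p14), and all 52 genes were found in that annotation. The list was divided into 30 genes of the autophagy core, 9 of mTOR control and 13 of the lysosome.

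Macroautophagy encloses cytoplasm in a double membrane that fuses with the lysosome. The ULK kinase complex starts the process, a phosphatidylinositol 3-kinase complex marks the membrane, and a pair of ubiquitin-like conjugation systems attaches ATG8 proteins to it. mTOR complex 1 holds the process back in fed cells and keeps the transcription factor TFEB in the cytoplasm. TFEB reads an E-box variant, known as the CLEAR element, in promoters of lysosomal genes. PHF8 is a histone lysine demethylase whose PHD finger binds the methylated histone tails found at active promoters.

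The promoters whose sequences bear on the results are shown in gene orientation, 5′ to 3′, each covering 250 bases before to 50 bases after a RefSeq promoter start. Capitals mark matches, on either strand, to any of 8 motifs, here the GC box GGGCGG, the ETS site CCGGAAG and, in TSC1, a longer YY1 site. ULK2, MAP1LC3B and TSC1 are shown because their peaks were in both tables, a choice made after the values were seen. RB1CC1, with peaks in both as well, had no promoter sequence in the table used. ATG5 and ATG10 are shown because they were the only members whose highest APOC2 peak had its summit inside such a window.
ULK2, chr17:19867887-19868186, minus strand: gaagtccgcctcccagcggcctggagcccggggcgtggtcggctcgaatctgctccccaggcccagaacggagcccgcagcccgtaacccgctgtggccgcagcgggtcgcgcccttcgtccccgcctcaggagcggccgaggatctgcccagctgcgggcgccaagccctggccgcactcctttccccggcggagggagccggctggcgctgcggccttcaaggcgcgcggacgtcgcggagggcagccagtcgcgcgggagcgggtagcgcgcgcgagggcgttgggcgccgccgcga
MAP1LC3B, chr16:87392086-87392385, plus strand: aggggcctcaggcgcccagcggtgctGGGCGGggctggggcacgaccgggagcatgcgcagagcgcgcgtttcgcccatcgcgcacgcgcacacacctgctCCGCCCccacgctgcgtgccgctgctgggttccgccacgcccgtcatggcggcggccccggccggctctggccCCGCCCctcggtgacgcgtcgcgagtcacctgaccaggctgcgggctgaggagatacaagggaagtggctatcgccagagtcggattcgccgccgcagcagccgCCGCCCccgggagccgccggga
TSC1, chr9:132944567-132944866, minus strand: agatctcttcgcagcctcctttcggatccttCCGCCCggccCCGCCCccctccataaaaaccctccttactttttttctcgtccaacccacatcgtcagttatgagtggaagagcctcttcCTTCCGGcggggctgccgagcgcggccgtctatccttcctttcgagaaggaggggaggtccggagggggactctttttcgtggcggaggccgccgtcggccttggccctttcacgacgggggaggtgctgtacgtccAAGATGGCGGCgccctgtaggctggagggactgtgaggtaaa
ATG5, chr6:106325388-106325687, minus strand: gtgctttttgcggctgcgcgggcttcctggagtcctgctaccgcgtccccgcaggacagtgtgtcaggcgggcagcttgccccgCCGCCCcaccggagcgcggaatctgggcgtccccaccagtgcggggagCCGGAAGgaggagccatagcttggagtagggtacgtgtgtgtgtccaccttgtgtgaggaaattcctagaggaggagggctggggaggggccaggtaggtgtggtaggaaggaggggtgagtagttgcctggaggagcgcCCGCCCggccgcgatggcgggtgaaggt
ATG10, chr5:81971773-81972072, plus strand: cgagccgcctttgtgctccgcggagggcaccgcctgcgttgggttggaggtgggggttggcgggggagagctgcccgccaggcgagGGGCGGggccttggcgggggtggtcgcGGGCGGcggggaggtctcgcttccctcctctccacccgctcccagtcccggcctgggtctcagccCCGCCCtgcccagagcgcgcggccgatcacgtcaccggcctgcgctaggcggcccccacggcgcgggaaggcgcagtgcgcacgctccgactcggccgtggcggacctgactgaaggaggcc
The APOC2 summit lay 226 bp downstream of the promoter start at ULK2, 195 bp downstream at MAP1LC3B and 157 bp downstream at TSC1. It lay 101 bp upstream of it at ATG5 and 221 bp upstream at ATG10. The APOC2 peak covered 24 bases of the window at ULK2, 34 at MAP1LC3B and 266 at TSC1. The ULK2 and MAP1LC3B windows thus lay mostly outside the peak. The ULK2 window held no match to any of the 8 motifs, and the other windows shown each held at least 1 GC box. The GC content was 77% at ULK2, 75.7% at MAP1LC3B, 61.7% at TSC1, 67% at ATG5 and 76.7% at ATG10.

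The question of the series is whether PHF8 binding changes with APOC2. With empty vector 4 members were occupied: the kinase gene ULK2, its partner RB1CC1, MAP1LC3B, which encodes the ATG8 protein LC3B, and TSC1, which encodes a brake on mTOR complex 1. These 4 made up 7.69% of the members, against 5.95% of all protein-coding genes. All 4 were also occupied in the APOC2 table (5.84% of all protein-coding genes were occupied in both), with 25 further members in that table alone (18.0% of all protein-coding genes), so 29 of 52 were occupied (55.8%, against 23.8% of all protein-coding genes). No member was occupied in the vector table alone, where 0.105% of all protein-coding genes were, and 23 members had no peak at their ends in either table. By class, the vector and APOC2 tables had peaks at 3 and 16 of the 30 autophagy core genes, at 1 and 6 of the 9 mTOR control genes, and at 0 and 7 of the 13 lysosome genes.

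The shares changed with the peak strength and position required and with the genes they were set against. Requiring 5-fold enrichment or more left 11 members in the APOC2 table (21.2%, against 14.1% of all protein-coding genes). With the 4015 top-ranked peaks of each table it was 12 members (23.1%, against 12.5%). When the peak had to cover the annotated start or end itself, a rule on position and not on strength, it was 5 members (9.62%, against 8.55%). The highest APOC2 peaks of occupied members had a median length of 264 bp, against 311 bp over all occupied protein-coding genes. Among genes with a promoter rich in CpG, defined after the data were seen as an observed-to-expected CpG ratio of at least 0.6, 27 of 44 members (61.4%) and 32.8% of all such genes were occupied in the APOC2 table. In the vector table these shares were 6.82% and 7.54%.

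**Figure D1:**
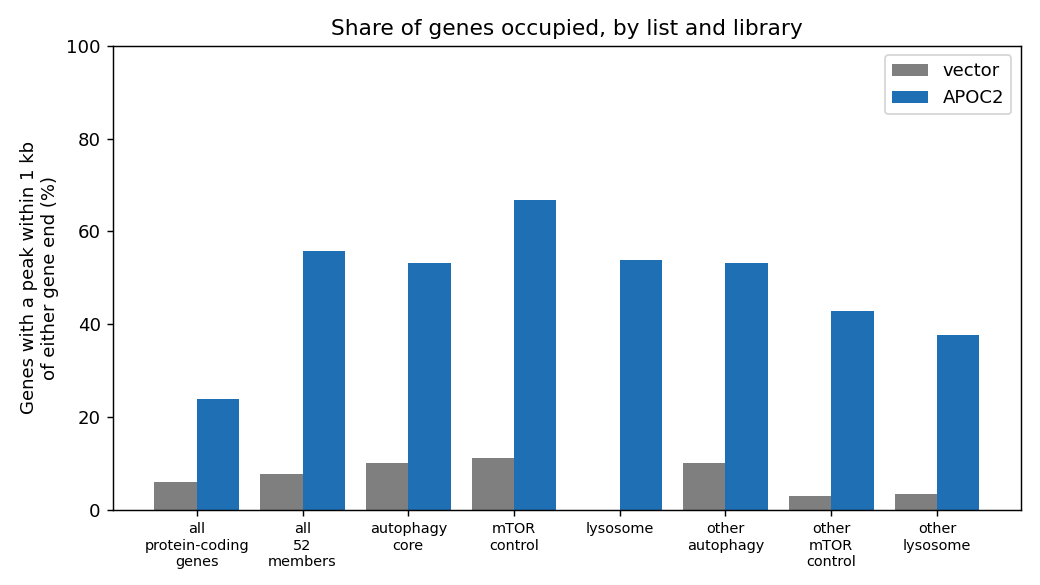
Share of genes with a peak midpoint within 1 kb of either gene end (vertical axis, percent) in the vector table (grey) and the APOC2 table (blue), for all protein-coding genes, the 52 members, their 3 classes and 3 lists of other genes of the same pathways. Each bar is 1 library, so there is no error bar; the members stand at 7.69% and 55.8%, and all protein-coding genes at 5.95% and 23.8%.

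Enrichment could be compared between the tables at the 4 members present in both. At TSC1 the fold enrichment over local background was 7.0 with vector (chromosome 9, 132944303 to 132944801, pileup 32.7 fragments) and 12.5 with APOC2 (132944280 to 132944832, pileup 50). The log2 ratio, APOC2 over vector, was 0.83, with an interval of 0.20 to 1.47 that covers only the counting error of the pileups at 95%. TSC1 thus had the higher fold enrichment in the APOC2 library, with an interval above 0. The ratio also rests on the local backgrounds, 3.81 fragments with vector and 3.09 with APOC2, whose error is not in the interval. For the pileups alone the log2 ratio was 0.61 as deposited and 0.88 scaled to the control depth. Whether the difference exceeds the full counting error was not tested.

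At MAP1LC3B the fold enrichment was 3.86 with vector (chromosome 16, 87392348 to 87392997, pileup 37.6) and 7.18 with APOC2 (87392352 to 87392944, pileup 54). The log2 ratio of fold enrichment was 0.90 (0.30 to 1.49), with an interval above 0 that again covers only the counting error of the pileups. This ratio also rests on the local backgrounds, 8.999 fragments with vector and 6.66 with APOC2, whose error is left out. For the MAP1LC3B pileups alone the log2 ratio was 0.52 as deposited and 0.79 scaled to the control depth. Whether the difference at MAP1LC3B exceeds the full counting error was not tested. LC3B is the ATG8 protein most used to mark autophagosomes. At ULK2 the fold enrichment was 5.45 with vector (chromosome 17, 19867229 to 19867865, pileup 20.8) and 8.53 with APOC2 (19867183 to 19867910, pileup 23), a log2 ratio of 0.65 (-0.21 to 1.5). At RB1CC1, the gene of the scaffold FIP200, it was 6.68 with vector (chromosome 8, 52714151 to 52714432, pileup 35.6) and 7.55 with APOC2 (52714035 to 52715031, pileup 38), a log2 ratio of 0.18 (-0.48 to 0.83). The intervals at both initiation genes included 0, so a difference was not detectable at this depth. The RB1CC1 peak was 282 bp long in the vector table and 997 bp in the APOC2 table.

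The median log2 ratio over these 4 genes was 0.74, beside 0.52 over the 1171 protein-coding genes occupied in both tables. The interval at each of the 4 genes included 0.52. All 4 ratios were above 0, as were 89.4% of those over all genes occupied in both. RB1CC1 lies on chromosome 8 and TSC1 on chromosome 9, where 26.7% and 21.1% of protein-coding genes were occupied in the vector table, against 4.51% on the other chromosomes. With APOC2, 40.4% and 39.6% of the genes on these chromosomes were occupied, as were all 4 members there (CTSB and CTSL are the other two). On the other chromosomes 2 of 48 members (4.17%) were occupied with vector and 25 (52.1%, against 22.5%) with APOC2. The part of the chromosomes in this result was not tested.

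**Figure D2:**
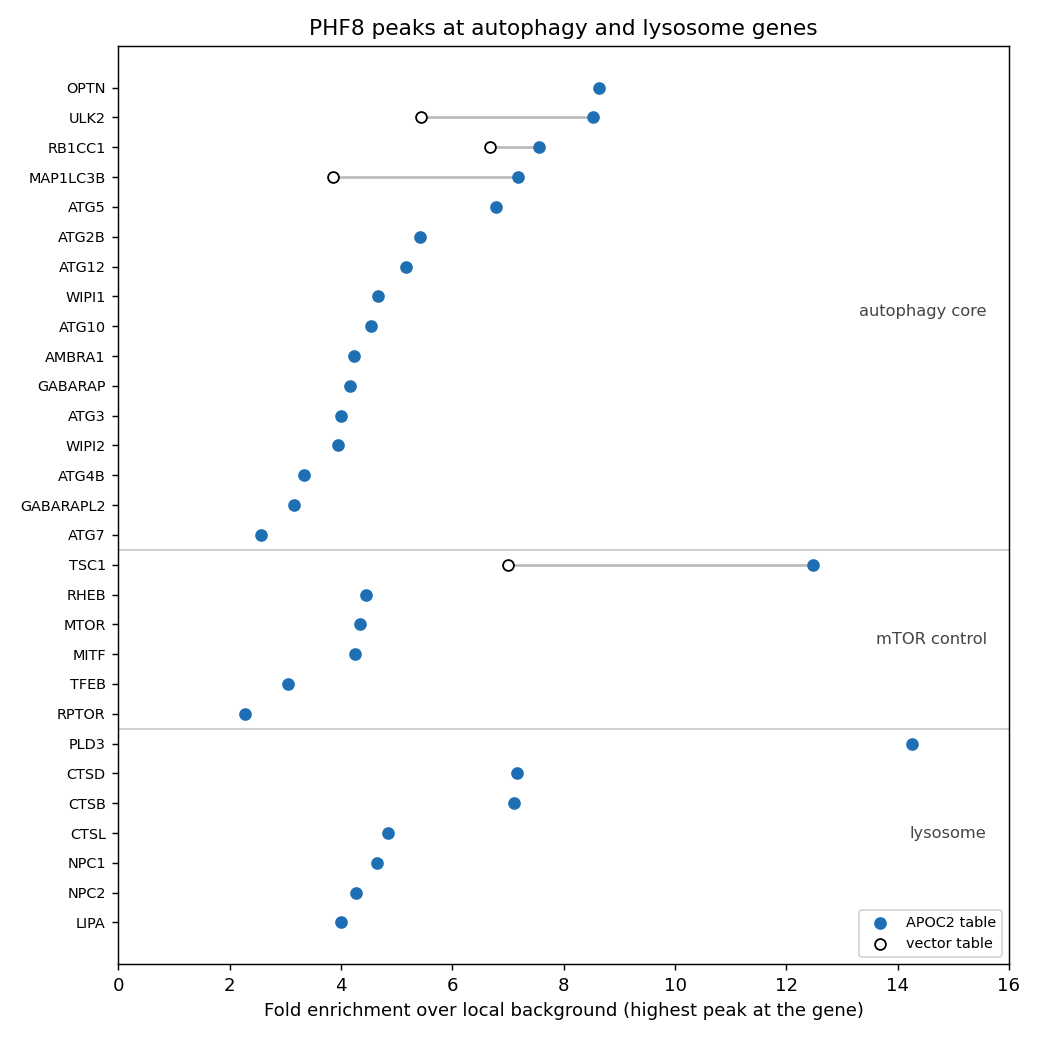
Fold enrichment over local background of the highest peak at each of the 29 occupied members (horizontal axis), grouped by class, in the APOC2 table (filled blue) and, where a peak was listed, in the vector table (open, joined by a grey line). Points are single libraries without error; ULK2, RB1CC1, MAP1LC3B and TSC1 have both points, and PLD3 has the highest value, 14.3, with no vector peak.

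Within the autophagy core, occupancy was counted step by step along the pathway, beside the 23.8% of all protein-coding genes occupied in the APOC2 table and the 18.0% in that table alone. Of the initiation genes, ULK2 and RB1CC1 had peaks in both tables, and ULK1, ATG13 and ATG101 had none at their ends. Of the 6 nucleation genes, AMBRA1, a regulator of the lipid kinase complex, was the only one occupied, in the APOC2 table alone. BECN1, PIK3C3, PIK3R4, ATG14 and UVRAG, which encode subunits of the complexes of that kinase, were occupied in neither table. Of the 7 conjugation genes, 6 were occupied in the APOC2 table alone (ATG3, ATG4B, ATG5, ATG7, ATG10 and ATG12), and ATG16L1 in neither. These counts are of few genes, and differences between steps were not tested.

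ATG5, the acceptor of ATG12, had the highest fold enrichment of the conjugation genes, 6.78 with a pileup of 23 (chromosome 6, 106325374 to 106325627). At ATG12, the ubiquitin-like protein itself, it was 5.17 with a pileup of 30 (chromosome 5, 115841955 to 115842183), the higher of 2 peaks there. ATG10, which joins ATG12 to ATG5, had 4.54 with a pileup of 20 (chromosome 5, 81971629 to 81971872). The peak at ATG7, the activating enzyme of both conjugation systems, was the weakest of the autophagy core, with 2.56 and a pileup of 25.

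Membrane growth depends on lipid transfer and on phosphoinositide readers. ATG2B, a lipid transfer protein gene, had a fold enrichment of 5.42 and a pileup of 36 (chromosome 14, 96363539 to 96364009), the higher of 2 peaks, while its paralog ATG2A had no peak. WIPI1, which reads phosphatidylinositol 3-phosphate, had 4.67 and a pileup of 24 (chromosome 17, 68457248 to 68457465), and WIPI2 was also occupied. ATG9A, the scramblase of the growing membrane, was occupied in neither table.

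Among the ATG8 genes, GABARAP and GABARAPL2 were occupied in the APOC2 table alone, beside MAP1LC3B in both, and GABARAPL1 in neither. Of the cargo receptors, OPTN, which brings ubiquitinated cargo to the membrane, had a fold enrichment of 8.63 and a pileup of 28 (chromosome 10, 13100133 to 13100540). It was the highest of the autophagy core in the APOC2 table and had no vector peak. SQSTM1 and NBR1, the genes of the other two receptors, had no peak at their ends.

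Of the mTOR control genes, RHEB, the activator of mTOR complex 1, had a fold enrichment of 4.45 and a pileup of 39 (chromosome 7, 151519362 to 151519645), in the APOC2 table alone. MTOR, the kinase, had 4.34 and 25 (chromosome 1, 11262337 to 11262556). MITF, a relative of TFEB, had 4.25 and 28 (chromosome 3, 69739482 to 69739727). TFEB itself had 3.05 and a pileup of 30, and RPTOR, the subunit that defines mTOR complex 1, had 2.27 and 24, the lowest value of the 29. RICTOR, which defines mTOR complex 2, MLST8, shared by both complexes, and TSC2, the partner of TSC1, had no peak at their ends in either table. TSC1 and TSC2 therefore differed in occupancy although their proteins act as 1 complex.

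The lysosome genes had peaks in the APOC2 table alone. PLD3, the gene of a lysosomal nuclease, had a fold enrichment of 14.3 and a pileup of 37 (chromosome 19, 40347981 to 40348391), over a local background of 1.66 fragments, the lowest of the occupied members. CTSD, an aspartic protease gene, had 7.16 with a pileup of 30 (chromosome 11, 1764076 to 1764356). CTSB, a cysteine protease gene, had 7.11 with a pileup of 50 (chromosome 8, 11867791 to 11868102), the highest pileup of the members without a vector peak. CTSL, another cysteine protease gene, had 4.84 with a pileup of 28 (chromosome 9, 87726227 to 87726462). The cholesterol exporters were both occupied. NPC1 had 4.65 with a pileup of 18 (chromosome 18, 23586194 to 23586411), and NPC2 had 4.26 with a pileup of 21 (chromosome 14, 74493746 to 74493969). LIPA, the lysosomal acid lipase gene, was occupied as well, at the outermost of its 3 RefSeq promoter starts. The summit was 286 bp from that start and 397 bp from an end of IFIT5. Its other promoter windows, chromosome 10, 89342640 to 89342939 and 89251726 to 89252025, lie inside the gene, which had no peak away from its ends. LAMP1, the channel gene MCOLN1, and the enzyme and cofactor genes CTSA, HEXA, GAA and PSAP were not.

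The 10 occupied members without a fold enrichment above 4.24 were AMBRA1, GABARAP, ATG3, LIPA, WIPI2, ATG4B, GABARAPL2, TFEB, ATG7 and RPTOR. With a q-value of at most 0.001 in place of the deposited list, ATG7 and RPTOR were lost. Over all 29 the median fold enrichment was 4.54, beside 5.41 over the 4778 protein-coding genes occupied in the APOC2 table, and 10 of the 29 lay above that median. The median pileup was 28 fragments in both. Of the 25 members in the APOC2 table alone, 18 had a fold enrichment below 5.

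The 4 members with a vector peak had APOC2 fold enrichments of 7.18 to 12.5 (median 8.04), and the 25 without one had 2.27 to 14.3 (median 4.34). Over all protein-coding genes occupied with APOC2 the medians were 7.24 with and 5.00 without a vector peak. PLD3 and OPTN, at 14.3 and 8.63, lacked a vector peak although their APOC2 values exceeded that of MAP1LC3B, 7.18. Of all protein-coding genes with an APOC2 fold enrichment of at least 7, 55.5% had a vector peak, and of those below 7, 14.7% had one. That value was chosen after the data were seen and lies just under MAP1LC3B, so member counts on its sides are not read. The tables list only called peaks, so a missing vector peak gives no value for the signal there.

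**Figure D3:**
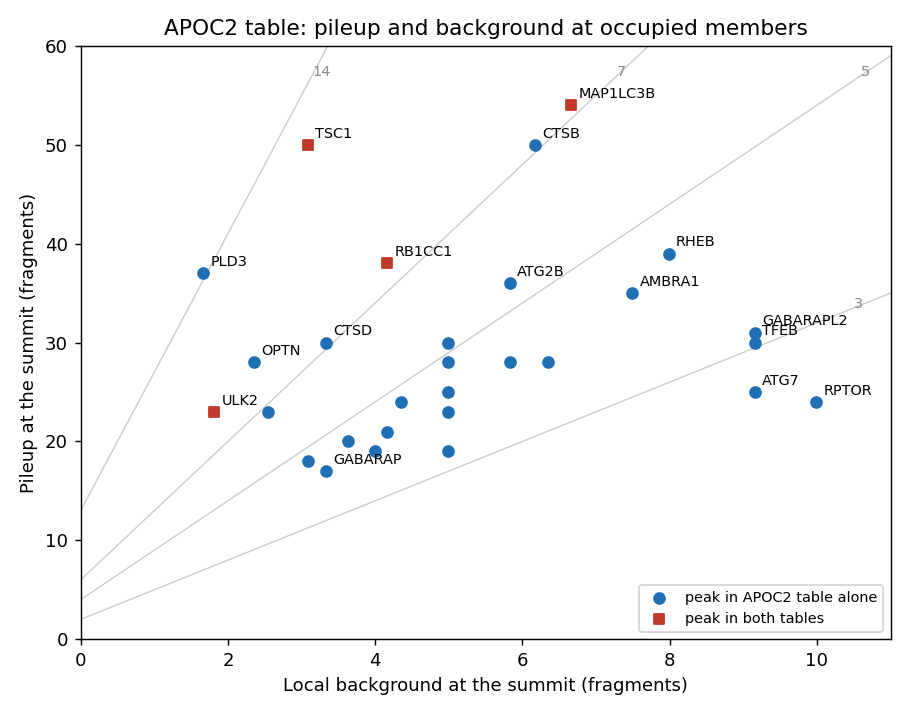
Pileup at the summit (vertical axis, fragments) against local background at the summit (horizontal axis, fragments) for the highest APOC2 peak of the 29 occupied members; squares have a peak in both tables, circles in the APOC2 table alone. Grey lines mark equal fold enrichment of 3, 5, 7 and 14; PLD3 lies near the line of 14 through a background of 1.66, and RPTOR and ATG7 lie below the line of 3 at backgrounds of 9.99 and 9.16.

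The peaks lay at gene starts. Strand was given for 27 of the 29 occupied members, and in all 27 the highest APOC2 peak was within 1 kb of the annotated start, as it was for 97.6% of all occupied protein-coding genes with a strand. The summit lay 50 to 250 bp downstream of the nearest RefSeq promoter start in 17 of the 27 (63%, against 61% of all such genes). The median was 141 bp downstream, with a range from 465 bp upstream at ATG12 to 394 bp downstream at RHEB. At TSC1 the summit was 919 bp inside the outermost annotated start but 157 bp downstream of the promoter start shown above. The gene table gave no exons, so whether a peak was exonic or intronic was not determined.

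Upstream summits often fell at a second gene. The summit lay upstream of the annotated start in 7 of the 27 members: ATG10, CTSD, LIPA, ATG2B, NPC2, PLD3 and ATG12. In 5 of these 7 the peak was also within 1 kb of an end of another protein-coding gene, against 5 of the 20 members with a downstream summit. Over all protein-coding genes these shares were 51.6% and 24.0%. At 4 members the summit was closer to the other gene than to the member. It was 95 bp from an end of AP3S1 and 465 bp from ATG12, 114 bp from GSKIP and 299 bp from ATG2B, 89 bp from ISCA2 and 342 bp from NPC2, and 274 bp from C19orf47 and 442 bp from PLD3. Which gene such a peak belongs to cannot be told apart, and the highest lysosomal value, that of PLD3, is among them. ATG12 and ATG2B each had another, lower APOC2 peak closer to their own start. Its midpoint was 16.5 bp from the start at ATG12 and 163.5 bp from it at ATG2B.

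**Figure D4:**
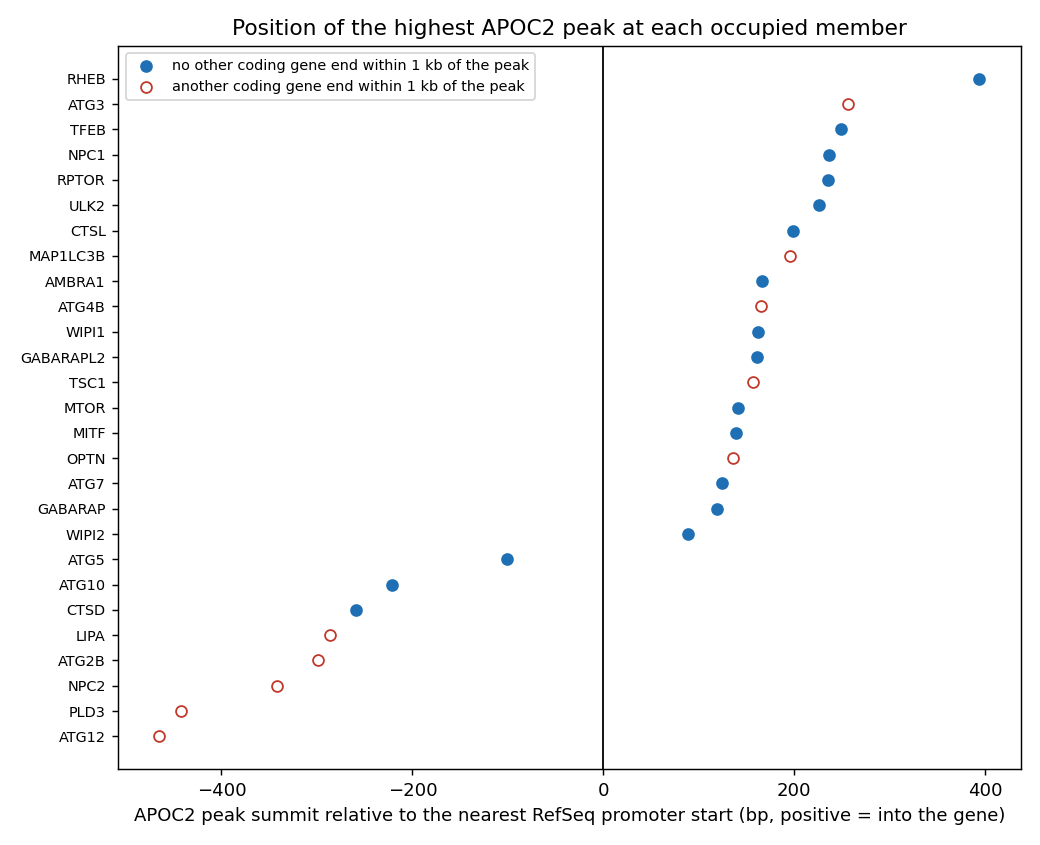
Distance of the highest APOC2 peak summit from the nearest RefSeq promoter start (horizontal axis, bp, positive into the gene) for the 27 occupied members with a strand. Filled points have no other protein-coding gene end within 1 kb of the peak and open points have one; a group lies 89 to 394 bp downstream, and the 5 farthest upstream, from LIPA at -286 to ATG12 at -465, are all open.

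The distances used by the rule, measured to the outermost annotated start or end, left a wide gap in the APOC2 table. The occupied members nearest the limit were TSC1, with its peak midpoint 822 bp away, and TFEB, 865 bp away. The nearest unoccupied members were ATG101, 4.85 kb away, and MLST8, 5.12 kb away. The gap does not hold for promoter starts inside the gene. ATG101 and SQSTM1, both unoccupied by the rule, had an APOC2 summit 100 bp and 129 bp from such a start. In the vector table the nearest unoccupied member was NPC1, with a midpoint 2.46 kb away (chromosome 18, 23503521 to 23503927, fold enrichment 5.68), at the end of the gene opposite to its APOC2 peak.

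Promoter sequence was available for 46 members. RB1CC1, UVRAG, MLST8, CTSB, HEXA and PSAP had none in the table used. Base composition differed little between occupied and unoccupied members. The median CpG ratio was 0.831 in the 39 promoter windows of occupied members and 0.882 in the 23 windows of unoccupied members. Over all protein-coding genes it was 0.854 in windows of occupied and 0.664 in windows of unoccupied genes. Windows were grouped by the call of their gene, so windows of an occupied gene were not all near its peak. The GC box was in 71.8% of windows of occupied and 78.3% of windows of unoccupied members. Over all protein-coding genes it was in 71.6% of windows of occupied and 51.4% of windows of unoccupied genes (56.3% of all windows). The occupied members ULK2, ATG12, AMBRA1 and RPTOR had no GC box in any window. The ETS site was in 12.8% of windows of occupied and 30.4% of windows of unoccupied members, which were 5 and 7 windows. The 7 came from ATG101, ATG16L1, BECN1, PIK3C3, SQSTM1 and 2 overlapping windows of TSC2. ATG101 had an APOC2 summit 100 bp from its promoter start, inside the annotated gene. Over all protein-coding genes the order was the opposite, 19.9% of windows of occupied and 10.6% of windows of unoccupied genes (12.8% of all).

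The E-box CACGTG was looked for because TFEB reads it, in the form TCACGTG on either strand. The longer form was in 6 of 14 windows of lysosome members (42.9%), from 6 of the 10 genes with a sequence, against 4.44% of all protein-coding windows. It was in 5.71% of autophagy core and 7.69% of mTOR control windows. Of the 9 genes with this motif, ATG3, CTSD and PLD3 were occupied in the APOC2 table, and ATG14, CTSA, GAA, LAMP1, MCOLN1 and TSC2 were not. By genes with a sequence this was 3 of 27 occupied and 6 of 19 unoccupied members. By windows this was 3 of 39 in occupied members (7.69%) and 6 of 23 in unoccupied members (26.1%). Over all protein-coding genes the order was the opposite, 5.46% of windows of occupied and 4.11% of windows of unoccupied genes. The copy nearest the promoter start of each gene is shown so that the flanks can be compared, with the core in capitals.
LAMP1, chr13:113297228-113297253, plus strand: cggcgcagctCACGTGacaagcgctg
MCOLN1, chr19:7522600-7522625, plus strand: gctaccgggtCACGTGaccgaggcac
GAA, chr17:80101540-80101565, plus strand: tcccgccggtCACGTGacccgcctct
CTSA, chr20:45891300-45891325, plus strand: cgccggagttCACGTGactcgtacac
PLD3, chr19:40348550-40348575, plus strand: tcgtaaccgtCACGTGaccgcccacc
CTSD, chr11:1763959-1763984, minus strand: cggccgcgccCACGTGaccggtccgg
ATG3, chr3:112561942-112561967, minus strand: agtctagtgtCACGTGaggccccggt
ATG14, chr14:55411836-55411861, minus strand: aacaaaatccCACGTGactggctctc
TSC2, chr16:2047861-2047886, plus strand: gcggccccgtCACGTGatgcaaggat
LAMP1 held 6 copies of the core in its window, ATG3, CTSA, GAA, MCOLN1 and PLD3 held 2 each, and CTSD, ATG14 and TSC2 held 1. A match describes the letters of the window and is not a measured site of TFEB or PHF8. The NRF1 site was in no member window (1.5% of all windows). A Kaiso-type palindrome was in 1, of LAMP1 (0.568% of all), and the YY1 site in 1, of TSC1 (1.18% of all). The CCAAT box was in 30.8% of windows of occupied and 30.4% of windows of unoccupied members (34.7% of all).

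Other genes of the same pathways were counted from 3 lists, beside 5.95% of all protein-coding genes occupied with vector and 23.8% with APOC2. Of 30 other autophagy genes, 3 (10%) were occupied with vector and 16 (53.3%) with APOC2. Of 35 other mTOR control genes these numbers were 1 (2.86%) and 15 (42.9%), and of 61 other lysosome genes 2 (3.28%) and 23 (37.7%). The vector shares of the mTOR control and lysosome lists lay below that of all protein-coding genes. None was occupied in the vector table alone. The genes in both tables were TAX1BP1, STX17, SNAP29, DEPTOR, ATP6V1F and M6PR.

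STX17 and SNAP29, which encode partners in the fusion of autophagosome and lysosome, had peaks in both tables. The fold enrichment at SNAP29 was 5.70 with vector and 9.61 with APOC2, and at STX17 6.36 and 8.96. SNX4, a sorting nexin gene, had 6.51 in the APOC2 table alone. DEPTOR, an mTOR inhibitor gene, had 7.67 and 10.3. In the APOC2 table alone, SESN1, a sestrin gene that acts in amino acid sensing, had 8.33, and SLC38A9, the gene of a lysosomal arginine sensor, had 6.93. M6PR, a receptor that carries enzymes to the lysosome, had 7.22 and 13.1, the highest APOC2 value of these lists. LGMN, a protease gene, had 8.26 and CTNS, the cystine exporter gene, had 7.91, both in the APOC2 table alone. The log2 ratio was 0.75 (0.06 to 1.45) at SNAP29 and 0.85 (0.05 to 1.65) at M6PR. At STX17 it was 0.49 (-0.10 to 1.09) and at DEPTOR 0.42 (-0.28 to 1.13), so the difference was not detectable there.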

How the data were processed

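PHF8 ChIP-seq of RKO cells was analysed from 1 deposited peak table per condition, grouped by the treatment in the labels. The submitters' processing notes name Bowtie2 2.2.9, MACS2 2.0, HOMER and the build hg38. The control library, thresholds and handling of duplicate reads are not given in the sources used here. Per the file headers, the authors deposited the pileup signal at each summit and the fold enrichment over local background, with 1 added to both terms. A pair of columns without a name was taken, from their place, as the -log10 p-values and -log10 q-values the authors deposited. The tables held 4015 vector and 8928 APOC2 peaks. No read totals were given. Steps in the values put the APOC2 library at 0.824 times the depth of the vector library if both had the same control. The step of 0.833 in the APOC2 backgrounds fitted 64.4% of the values above 1.5 fragments. The vector pileup step fitted 100% of its values. Scaled pileups use the step of 0.833.

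Peaks were assigned to genes by midpoint, and a gene with several peaks was represented by that of highest fold enrichment. Values were named for every member in both tables, for the 15 strongest in the APOC2 table alone and for the 3 strongest of each other list. Names beyond these were chosen after the values were seen. Intervals of log2 ratios at 95% use a normal approximation from the Poisson error of both pileups. They cover the counting error of the pileups only and leave out that of the local background. Reads without molecular identifiers may also be copies of 1 molecule. Genes and promoter sequences came from RefSeq (GRCh38.p14). A rule that would have shown promoters of each class gave only ATG5 and ATG10. The assignment code was tested on simulated peaks. Tools were Python 3.11.15, pandas 2.3.3, numpy 2.4.6 and scipy 1.17.1. Alternatives covered the window, peak strength and measure of enrichment. The members and lists were chosen with earlier results of these data known.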

Additional observations from a re-analysis of the deposited data

How the results depend on the processing

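No paired analysis was possible because there was 1 library per condition, and leaving out a replicate was not possible for the same reason. A count was called changed past a factor of 1.5 and a share when it left its 95% exact (Clopper-Pearson) interval, which was 5.63 to 6.29% for vector and 23.3 to 24.4% for APOC2. Of the recomputed counts, shares and medians, 83 stayed and 48 changed; the cause was not tested except where fewer peaks, genes or bases counted. The log2 ratios of the 4 members in both tables stayed above 0 with scaled pileup and without the added 1. The members' share did not stay above that of all genes in every setting. With the annotated end alone, without the start, it was below in both tables. In the vector table it was also below when the peak had to cover the annotated start or end. The same held there among genes with a CpG-rich promoter (6.82% against 7.54%) and off chromosomes 8 and 9 (4.17% against 4.51%). The median log2 ratio over members in both tables lay between 0.33 (pileup as deposited) and 0.89 (without the added 1), with 0.60 for pileup scaled to the control depth and 0.65 over the 3 members left at a fold enrichment of at least 5.

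When the peak had to cover the annotated start or end, 0 members were occupied with vector and 5 with APOC2 (autophagy core 3, mTOR control 1, lysosome 1). So 0 were in both, 5 in the APOC2 table alone and 47 in neither, with 1.45% and 8.55% of all genes. The annotated end alone, without the start, was counted over 46 members and the 15843 genes with a strand. There 0 members were occupied in either table or any class and 46 in neither, with 0.158% and 0.783% of all genes. With starts only the vector share of all genes was 5.5%. A fold enrichment of at least 5 left 11 members in the APOC2 table (autophagy core 7, mTOR control 1, lysosome 3), 8 in that table alone and 41 in neither, with 3.21% and 14.1% of all genes. Equal numbers of top-ranked peaks left 12 (7, 2 and 3), 8 alone and 40 in neither, with 12.5% of all genes in the APOC2 table. The 0.5 kb window left 0 mTOR control genes in the vector table (TSC1 was lost), with 5.24% and 21.3% of all genes, and the 3 kb window added 1 lysosome gene there, NPC1, with 6.58% and 26.2%. A q-value of at most 0.001 gave 23.1% of all genes in the APOC2 table. Any RefSeq promoter start, added after the data were seen, gave 25.6%. Among named genes, PLD3 moved from a fold enrichment of 14.3 to 22.2 without the added 1, and the other 22 values stayed within counting error. Scaled pileup gave no value for members without a vector peak.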

Other observations

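Members that counted as unoccupied could still have a peak inside the gene. The APOC2 table had such a peak at 2 of them, and the vector table had none at any member. At SQSTM1, the gene of the cargo receptor p62, it lay at chromosome 5, 179820926 to 179821170, with a fold enrichment of 4.95, a pileup of 39 and a summit 129 bp from an internal RefSeq promoter start. At ATG101, a partner of ATG13 in the ULK complex, it lay at chromosome 12, 52070038 to 52070255, with 3.66, a pileup of 24 and a summit 100 bp from a RefSeq promoter start that lies inside the annotated gene. Counting any RefSeq promoter start in place of the outermost gene ends, which was done after these values were seen, gave 29 of 46 members (63%, against 25.6% of all protein-coding genes with a sequence) in the APOC2 table and 3 (6.52%, against 5.99%) in the vector table.

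The vacuolar ATPase, the proton pump that acidifies the lysosome, had 15 genes in the other lysosome list, with its accessory subunits. Of these, 1 was occupied with vector and 7 with APOC2, where 5.95% and 23.8% of all protein-coding genes were, so the vector count is near the share of all genes. The APOC2 peak midpoint was 944 bp from the nearer gene end at ATP6V1A and 681 bp from it at ATP6V1D. Those peaks were also within 1 kb of NAA50 and EIF2S1, and which gene they belong to cannot be told apart. ATP6V1F, a subunit of the cytosolic domain, was in both, at 4.08-fold enrichment with vector and 5.42-fold with APOC2, a log2 ratio of 0.41 (-0.28 to 1.10). TAX1BP1, a cargo receptor gene, was the only gene of the other lists in both tables whose ratio was below 0, with 6.18 and 6.01 and a log2 ratio of -0.04 (-0.73 to 0.65), while scaled pileup gave a ratio above 0 there, 0.78. These genes were picked out after their values were seen.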
